A study of Mus musculus with 15 samples.

Results

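The NRF2 antioxidant and NADPH programme was followed through 10 genes in cultured mouse cerebellar cells exposed to IL-12, a cytokine made by activated myeloid cells. The genes were chosen by symbol, with earlier results of these data known, and are *Nfe2l2*, *G6pdx*, *Pgd*, *Slc7a11*, *Gclc*, *Gclm*, *Hmox1*, *Nqo1*, *Txnrd1* and *Srxn1*. These 10 genes were found among 35142 genes with a transcript in the data, and all 10 were among the 15360 genes that passed the filter on low counts, which kept genes with at least 1 CPM, a count scaled to library size, in at least 2 cultures. *Nfe2l2* encodes NRF2, a transcription factor that KEAP1 holds in the cytoplasm and delivers for degradation. When oxidants or electrophiles modify KEAP1, NRF2 accumulates, pairs with small MAF proteins and binds antioxidant response elements near genes for glutathione synthesis, thioredoxin and sulfiredoxin systems, quinone reduction, heme breakdown and NADPH supply. NRF2 is controlled largely through protein stability, and in the brain its targets are best known from astrocytes.

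RNA was sequenced in bulk from 15 cerebellar cell cultures made from C57BL/6 wt pups of age P0-P4, to ask which genes respond when cultured cerebellar neurons meet IL-12. On day 14 in vitro, recombinant murine IL-12p70 was given to 5 cultures at 30 ng/ml (the low dose) and to another 5 at 100 ng/ml (the high dose) for 18 h, and 5 were left unstimulated. All cultures shared the strain, the medium and the plating, and no other agent is named for any of them. The labels do not say whether the cultures of a group came from separate animals, so p-values measure only the spread between these cultures, which may be technical. Estimated counts per culture summed to 25746096 to 38435850, which left 76 to 14370 reads per gene and culture for the 10 genes.

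The cells are labelled as neurons, but markers of glia were far more abundant than those of neurons. In unstimulated cultures the 15 microglia markers summed to 10250 to 14440 TPM, the 12 oligodendrocyte lineage markers to 6652 to 9873 TPM and the 11 astrocyte markers to 3795 to 4270 TPM, against 179.8 to 241.6 TPM for the 15 cerebellar neuron markers, of which *Pcp2* and *Slc17a6* averaged under 1 TPM. TPM, the deposited unit, is a level per transcript length. Of the 10 T and NK cell markers, 9 averaged under 1 TPM and 2 were at 0 in every culture. In such bulk samples, fewer cells of a type and less RNA per cell cannot be told apart.

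In unstimulated cultures the 10 genes covered a wide range of levels per length. *Hmox1*, the heme oxygenase that breaks heme down to biliverdin, iron and carbon monoxide, was the highest at 422.8 ± 20.4 TPM (SD, n = 5), above 97.9% of the genes tested. Next came *Pgd*, the second dehydrogenase of the pentose phosphate pathway to yield NADPH, at 123.0 ± 8.50 TPM, *Nfe2l2* itself at 101.3 ± 3.61 TPM and *Txnrd1*, the cytosolic thioredoxin reductase, at 85.4 ± 5.21 TPM. The ranges over cultures did not overlap between these neighbours. *Srxn1* (57.2 ± 3.35 TPM), *Gclm* (56.3 ± 6.43 TPM), *Gclc* (52.0 ± 3.69 TPM) and *G6pdx* (48.6 ± 1.99 TPM) followed. The ranges overlapped between neighbours among these 4, so their order was not resolved, and all 4 lay above the genes that came next. *Nqo1*, a quinone reductase that uses NADPH, was low at 9.34 ± 0.667 TPM. *Slc7a11*, the xCT subunit of the cystine and glutamate exchanger, was at 0.637 ± 0.0947 TPM, above only 3.3% of the genes tested. Part of the *Gclm* value comes from a retained-intron transcript of 495 bases that averaged 25.1 TPM over the 15 cultures on 4.54% to 11.6% of the gene's reads. A coding transcript of 1088 bases averaged 20.8 TPM and the main transcript 12.2 TPM, so its place in this order rests largely on shorter transcripts. For *Srxn1*, a transcript of 375 bases averaged 18.8 TPM and the main transcript 42.5 TPM.

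**Figure D1:**
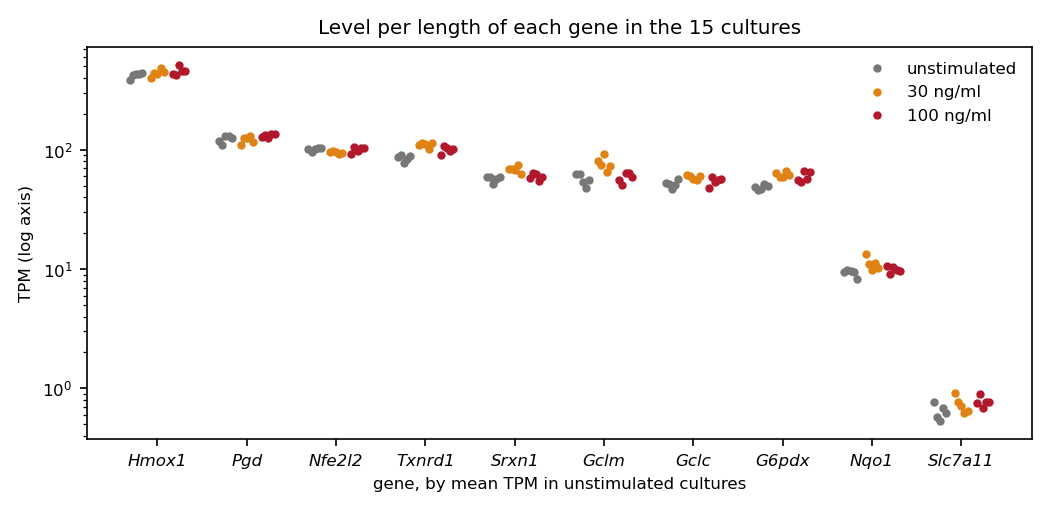
Level of each of the 10 genes in TPM (vertical axis, log scale) in every culture, with genes ordered by their mean in unstimulated cultures and each point 1 culture, coloured by group. *Hmox1* lies at the top with 422.8 TPM on average, *Srxn1*, *Gclm*, *Gclc* and *G6pdx* overlap, and *Slc7a11* lies at the bottom with 0.637 TPM.

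Since NRF2 acts through antioxidant response elements, the 1000 bases upstream of the start of each gene's main transcript were searched on both strands of GRCm39 for the core TGACNNNGC. A match was present for 4 of the 10 genes, against 29.9% of the 15360 genes tested, and lay within 250 bases of the start for *Gclm* and *Txnrd1*, against 10.6% of all genes. The 5 matches are shown because the tested changes below concern genes with and without one. Capitals mark the core, which reads on the opposite strand in all but *Nfe2l2*, and each window runs 5′ to 3′ on the strand of its gene.

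Txnrd1, 65 bases upstream, chr10:82694908-82694996, plus strand: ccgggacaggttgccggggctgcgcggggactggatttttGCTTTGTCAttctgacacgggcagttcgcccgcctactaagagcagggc

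Txnrd1, 371 bases upstream, chr10:82694602-82694690, plus strand: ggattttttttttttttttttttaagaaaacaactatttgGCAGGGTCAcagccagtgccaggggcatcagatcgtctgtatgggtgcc

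Gclm, 54 bases upstream, chr3:122039032-122039120, plus strand: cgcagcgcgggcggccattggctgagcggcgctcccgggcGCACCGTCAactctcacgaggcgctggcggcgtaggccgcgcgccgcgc

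Nfe2l2, 262 bases upstream, chr2:75535199-75535287, minus strand: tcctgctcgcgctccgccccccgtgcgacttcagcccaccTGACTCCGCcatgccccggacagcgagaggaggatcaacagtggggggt

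Slc7a11, 870 bases upstream, chr3:50398885-50398973, minus strand: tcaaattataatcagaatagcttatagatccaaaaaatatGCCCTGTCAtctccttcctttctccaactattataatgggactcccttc

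Both *Txnrd1* windows lie inside the annotated *Txnrd1* gene, upstream of its main transcript and outside its exons, and in an exon of the antisense lncRNA Gm38560. The *Gclm* window lies within an unnamed antisense lncRNA gene, the *Nfe2l2* window in exons of the lncRNAs E030042O20Rik and Gm75256, and the *Slc7a11* window is intergenic. These letters were absent from the searched stretch of *G6pdx*, *Pgd*, *Gclc*, *Hmox1*, *Nqo1* and *Srxn1*, which says nothing of sites elsewhere or with other letters.

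With the high dose of IL-12, 4 of the 10 genes were higher than in unstimulated cultures and 0 were lower at a false discovery rate (FDR) under 0.05, against 9.77% of all genes called in either direction, 5.83% called higher and 3.93% called lower. *G6pdx*, *Txnrd1* and *Srxn1* rose by 14.8% to 24.5% with every stimulated culture above every unstimulated one, as in 4.34% of all genes, and *Slc7a11* was 30.1% higher with groups that overlapped. DESeq2 and edgeR's likelihood-ratio test also called 4 higher and 0 lower, and 5 were higher and 0 lower at an unadjusted p under 0.05, which 25.6% of all genes passed. With the offset for effective length 2 of the 10 were called at this dose, and 0 passed a p of at most 0.01 with a log2 change of at least 0.5. With the low dose, 5 genes were higher and 0 lower, against 7.87% of all genes called, 4.16% called higher and 3.71% called lower. These were *Txnrd1*, *G6pdx*, *Srxn1*, *Gclc* and *Gclm*, with rises of 13.5% to 27%, and the first 4 had no overlap with the unstimulated cultures, as in 5.44% of all genes. At an unadjusted p under 0.05, which 22.7% of all genes passed, 7 were higher and 1, *Nfe2l2*, was lower, a difference that DESeq2 called. The length offset left 4 called at the low dose, and 0 passed the threshold on p and size. The median log2 fold change over the 10 genes was 0.12 at the high dose and 0.22 at the low dose, beside medians of -0.004 and 0 over all genes tested. Both comparisons use the same 5 unstimulated cultures. Because the 10 genes were chosen with earlier results of these data known, the shares over all genes stand beside them as a description, not a test. Fold changes, standard errors and FDR values of genes are from edgeR's quasi-likelihood test with Benjamini-Hochberg adjustment over the 15360 genes, and levels of single cultures are CPM scaled with TMM.

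**Figure D2:**
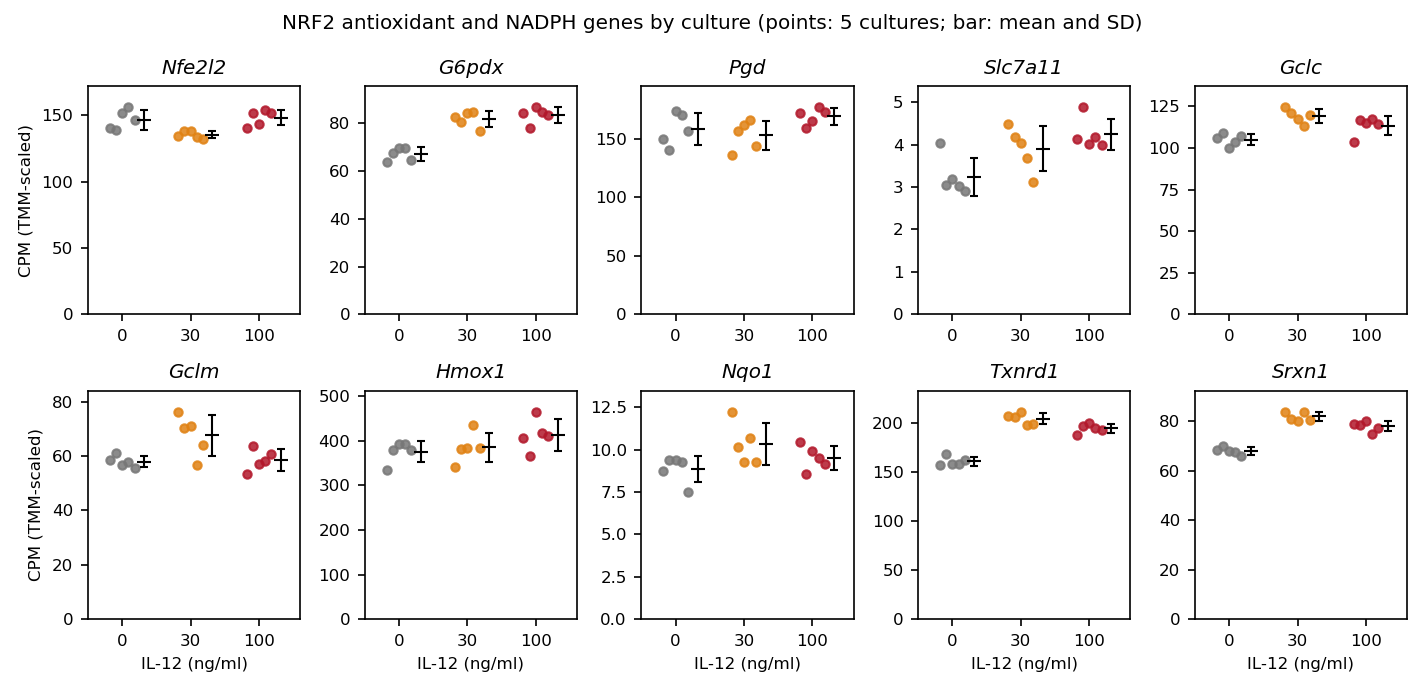
CPM of each of the 10 genes (vertical axis, from 0, scaled separately for each gene) against IL-12 concentration in ng/ml, with each point 1 culture and a bar for the mean and SD of 5 cultures. For *G6pdx*, *Txnrd1* and *Srxn1* the stimulated cultures of both doses lie above all unstimulated ones, while the groups of *Pgd*, *Hmox1* and *Nqo1* overlap.

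*Txnrd1* (GRCm39 chr10:82669785-82733546, plus strand) returns oxidized thioredoxin to its reduced form with electrons from NADPH. Its levels were 157.2, 168.2, 157.9, 158.4 and 162.6 CPM in the unstimulated cultures, 206.8, 206.0, 211.6, 198.1 and 199.2 CPM at the low dose, and 188.1, 196.9, 200.3, 194.6 and 192.8 CPM at the high dose. All 10 stimulated cultures lay above the highest unstimulated one. On the log2 scale the fold change was 0.35 ± 0.035 (SE; FDR = 2.74e-05) at the low dose and 0.27 ± 0.035 (FDR = 0.00012) at the high dose. By p, *Txnrd1* ranked 8 of 15360 genes at the low dose and 50 at the high dose. Its main transcript carried 79.6% to 88.9% of the reads in each culture, and a shorter form from nearly the same start carried 7.52% to 15.8%.

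*Srxn1* (chr2:151947436-151957687, plus strand) encodes sulfiredoxin, which repairs peroxiredoxins that have been overoxidized. In unstimulated cultures it had the lowest coefficient of variation of CPM among the 10 genes (2.2%), with 68.22, 69.98, 68.01, 67.33 and 65.92 CPM. It reached 83.74, 80.91, 80.21, 83.82 and 80.52 CPM at the low dose and 78.80, 78.56, 80.16, 74.87 and 77.29 CPM at the high dose. The stimulated cultures were again all above the unstimulated ones. The 5 cultures at the high dose were all below the 5 at the low dose, as in 1.23% of all genes. The nearest values were 80.16 and 80.21 CPM, and the difference between the doses was not called (FDR = 0.396). The log2 fold change was 0.27 ± 0.034 (FDR = 0.000292) at the low dose and 0.20 ± 0.034 (FDR = 0.00131) at the high dose. With an offset for effective transcript length the change at the high dose was 0.08 (FDR = 0.426) and that at the low dose was still called. A transcript of 375 bases without a defined coding sequence carried 3.62% of the *Srxn1* reads in unstimulated cultures, 3.38% at the low dose and 2.65% at the high dose.

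Among the genes that supply NADPH, *G6pdx* (chrX:73449857-73472819, minus strand) encodes glucose-6-phosphate dehydrogenase, which commits glucose to the pentose phosphate pathway. Its levels were 63.70, 67.72, 69.87, 69.91 and 64.55 CPM in unstimulated cultures, 82.55, 80.74, 84.47, 84.89 and 76.73 CPM at the low dose, and 84.19, 78.17, 87.00, 84.80 and 83.73 CPM at the high dose. The lowest stimulated culture was thus above the highest unstimulated one. Its log2 fold change was 0.29 ± 0.043 (FDR = 0.000769) at the low dose and 0.32 ± 0.043 (FDR = 0.000187) at the high dose. Its near-identical retrogene *G6pd2* received 0 reads. *Pgd*, which catalyses the next NADPH-yielding step of the same pathway, did not pass the test. Its levels were 149.8, 140.8, 174.1, 170.8 and 157.3 CPM in unstimulated cultures, 136.3, 157.3, 161.9, 166.2 and 143.9 CPM at the low dose, and 172.6, 159.1, 165.1, 177.7 and 172.9 CPM at the high dose. The 3 groups overlapped, with log2 fold changes of -0.05 (95% interval -0.18 to 0.08) at the low dose and 0.10 (-0.04 to 0.23) at the high dose.

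Glutathione synthesis is represented by the cystine importer and by both subunits of glutamate-cysteine ligase, its rate-limiting enzyme. *Gclc* (chr9:77661797-77701770, plus strand), the catalytic subunit, stood at 105.8, 109.1, 99.85, 103.5 and 107.2 CPM in unstimulated cultures, 124.8, 121.2, 117.3, 113.4 and 119.6 CPM at the low dose, and 103.3, 117.0, 115.0, 117.6 and 114.2 CPM at the high dose. All cultures at the low dose lay above the unstimulated ones, while 1 culture at the high dose lay among them. On the log2 scale the fold change was 0.18 ± 0.042 (FDR = 0.014) at the low dose and 0.11 ± 0.042 (FDR = 0.11) at the high dose, and the latter was 0.14 (FDR = 0.0355) without replicate 1 at the high dose. With the length offset the change at the low dose had an FDR of 0.0726.

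*Gclm* (chr3:122039126-122065061, plus strand), the modifier subunit, gave 58.55, 61.09, 56.76, 57.72 and 55.76 CPM in unstimulated cultures, 76.38, 70.35, 71.00, 56.62 and 64.13 CPM at the low dose, and 53.29, 63.81, 56.96, 58.36 and 60.65 CPM at the high dose. Of the cultures at the low dose, 4 were above all unstimulated ones and replicate 4 was among them. The log2 fold change was 0.22 ± 0.067 (FDR = 0.047) at the low dose and 0.02 ± 0.067 (FDR = 0.916) at the high dose. The call at the low dose held in 9 of 25 alternatives (FDR 0.00868 to 0.268). It was lost without any 1 of 11 cultures, namely all unstimulated replicates but 2, replicates 1, 2, 3 and 5 at the low dose, and replicates 3, 4 and 5 at the high dose, and the main transcript alone gave 0.17 (FDR = 0.268).

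*Slc7a11* (chr3:49846975-50398070, minus strand) was at 4.02, 3.05, 3.18, 3.01 and 2.90 CPM in unstimulated cultures, 4.49, 4.17, 4.04, 3.68 and 3.12 CPM at the low dose, and 4.14, 4.89, 4.02, 4.17 and 3.99 CPM at the high dose. Unstimulated replicate 1 reached the level of the stimulated cultures and the other 4 lay below those at the high dose. Its log2 fold change was 0.38 ± 0.116 (FDR = 0.047) at the high dose and 0.26 ± 0.117 (FDR = 0.189) at the low dose, on 76 to 154 reads per culture. The call at the high dose held in 9 of 25 alternatives (FDR 0.0186 to 0.18). Of the 15 cultures, it outlasted the removal of unstimulated replicate 1 and of replicates 1 and 5 at the low dose, and was lost without any 1 of the other 12.

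**Figure D3:**
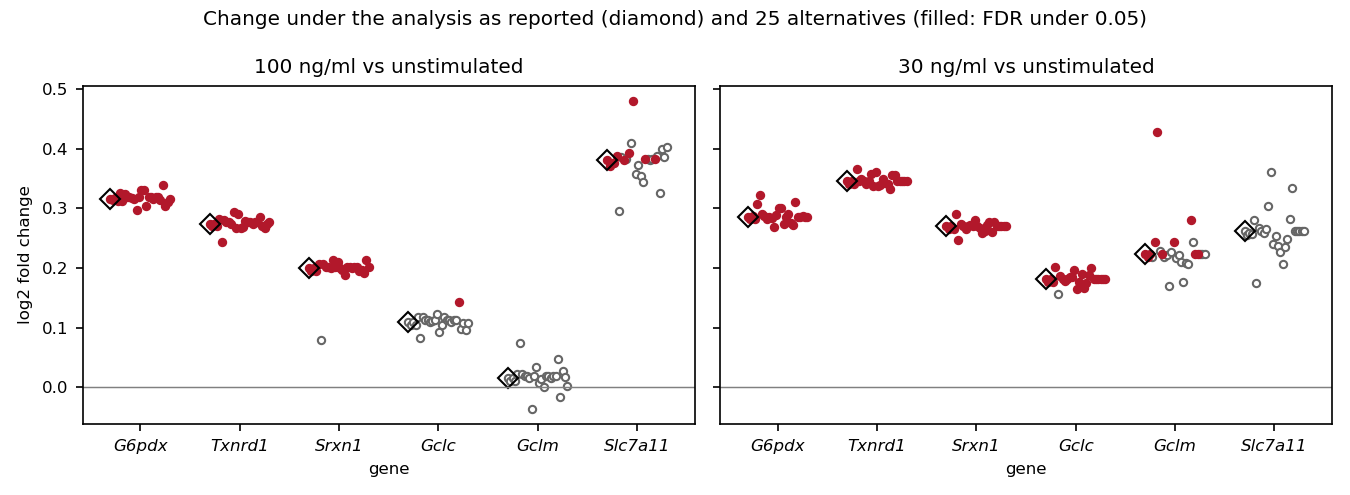
Log2 fold change (vertical axis) of 6 genes under the reported analysis (diamond) and 25 alternatives (points, filled at an FDR under 0.05), for the high dose on the left and the low dose on the right. *G6pdx* and *Txnrd1* are filled throughout, whereas *Gclm* at the low dose and *Slc7a11* at the high dose are filled in 9 of 25.

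The 3 remaining genes did not pass the test at either dose. *Hmox1* was at 334.8, 379.4, 393.1, 393.9 and 378.9 CPM in unstimulated cultures, 342.2, 380.8, 384.0, 435.4 and 384.6 CPM at the low dose, and 405.6, 366.5, 465.6, 416.6 and 410.3 CPM at the high dose. The groups overlapped, with log2 fold changes of 0.04 (95% interval -0.1 to 0.18) and 0.14 (0 to 0.28). *Nqo1* ranged over 7.53 to 9.39 CPM without IL-12, 9.27 to 12.2 CPM at the low dose and 8.57 to 10.4 CPM at the high dose, with log2 fold changes of 0.22 (0.04 to 0.41; FDR = 0.125) and 0.11 (-0.08 to 0.29; FDR = 0.48).

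The regulator itself, *Nfe2l2* (chr2:75504739-75534985, minus strand), was at 140.4, 138.7, 151.8, 156.6 and 146.3 CPM in unstimulated cultures, 134.5, 138.1, 138.4, 133.7 and 132.4 CPM at the low dose, and 140.8, 151.8, 143.9, 153.9 and 152.0 CPM at the high dose. The cultures at the low dose were below all others, although their highest value was within 1 CPM of the lowest unstimulated one. Groups that do not overlap in either direction were found for 8.89% of all genes at the low dose (3.46% below) and for 7.17% at the high dose (2.84% below). The log2 fold change of *Nfe2l2* was -0.12 ± 0.041 (FDR = 0.0911, and 0.0376 with DESeq2) at the low dose and 0.02 ± 0.041 (FDR = 0.842) at the high dose. Its RNA level was not called higher at either dose.

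**Figure D4:**
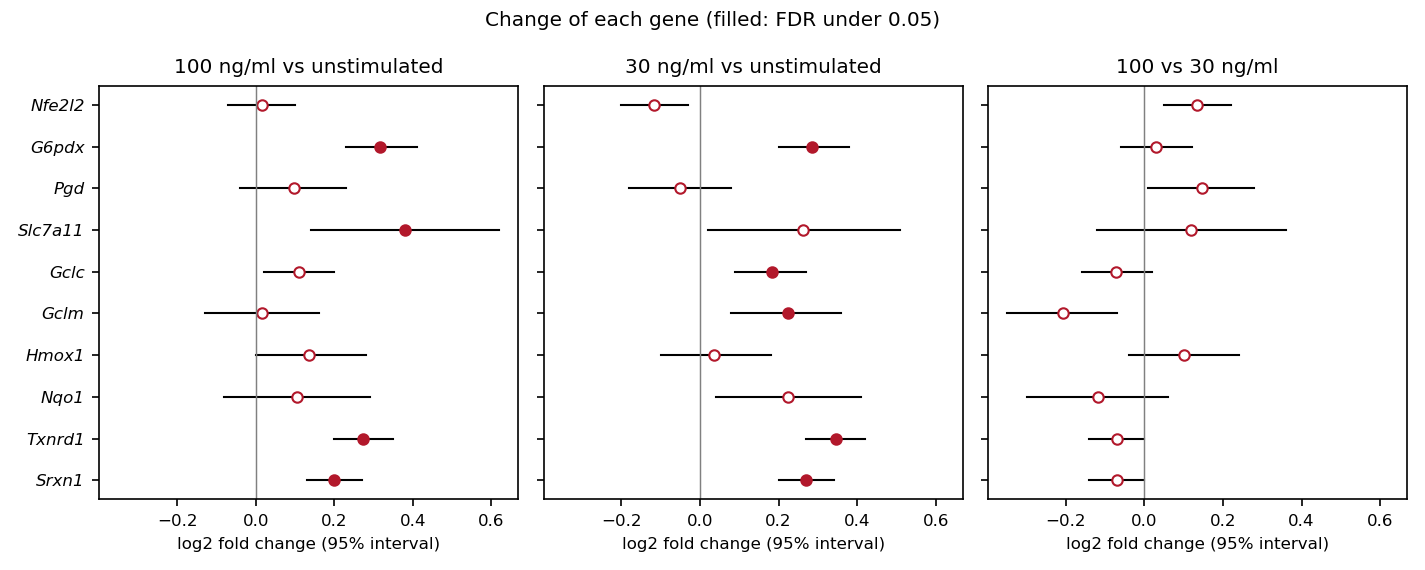
Log2 fold change of each of the 10 genes (horizontal axis) with its 95% interval, for each dose against unstimulated cultures and for 100 against 30 ng/ml, with filled points at an FDR under 0.05. There are 4 filled points in the first panel, 5 in the second and 0 in the third.

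Between 100 and 30 ng/ml, edgeR's quasi-likelihood test called 0 of the 10 genes, as did DESeq2 and the likelihood-ratio test, against 0.579% of all genes (0.501% higher and 0.0781% lower at the high dose). At an unadjusted p under 0.05 there were 3, with *Nfe2l2* (0.13 ± 0.041, FDR = 0.186) and *Pgd* (0.15 ± 0.063, FDR = 0.338) higher at the high dose and *Gclm* (-0.21 ± 0.066, FDR = 0.202) lower. In this comparison all 15 microglia markers had a positive log2 fold change, with a median of 0.295. Of these markers 14 were higher at an unadjusted p under 0.05. The quasi-likelihood test called 0 of them, and DESeq2 and the likelihood-ratio test each called 1 higher. A link to *Nfe2l2* and *Pgd* was not tested. All cultures at the high dose were above those at the low dose for *Nfe2l2* and below them for *Srxn1*, while 2.97% of all genes had no overlap here (1.74% above and 1.23% below). Without replicate 4 at the low dose, the *Gclm* difference was -0.26 (FDR = 0.0444). For the genes called at both doses, the difference was 0.03 (95% interval -0.06 to 0.12) for *G6pdx*, -0.07 (-0.14 to 0) for *Txnrd1* and -0.07 (-0.14 to 0) for *Srxn1*.

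Markers of cell types moved between the same groups. At the low dose, 10 of 15 microglia markers fell, 0 rose, and their median log2 fold change was -0.42. DESeq2 and the likelihood-ratio test each called 13 of the 15 lower there, and 14 were lower at an unadjusted p under 0.05. The summed level of the 15 microglia markers was 8217 to 10270 TPM at the low dose, 10250 to 14440 TPM in unstimulated cultures and 9752 to 12840 TPM at the high dose. For the high dose, edgeR's quasi-likelihood test, DESeq2 and the likelihood-ratio test called 0 of them, and 2 were lower at an unadjusted p under 0.05. The 11 astrocyte markers summed to 4485 to 5267 TPM at the low dose and 4219 to 4681 TPM at the high dose, with 3 higher and 0 lower at the low dose and 2 higher and 1 lower at the high dose (4 and 2 with DESeq2 and with the likelihood-ratio test). Oligodendrocyte lineage markers summed to 6682 to 8201 TPM at the low dose and 5940 to 7216 TPM at the high dose, with 1 and 4 of 12 lower. Of the cerebellar neuron markers 13 were tested, with a median log2 fold change of -0.49 at the low dose (1 higher, 2 lower) and -0.32 at the high dose (1 higher, 1 lower). At the low dose DESeq2 called 5 of them lower, the likelihood-ratio test 4, and 9 were lower at an unadjusted p under 0.05. Their summed level was 205.3 to 247.2 TPM at the low dose and 200.2 to 235.6 TPM at the high dose, which overlapped that of unstimulated cultures.

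Over the 15 cultures, *Nfe2l2* and *Pgd* followed the summed microglia markers (Pearson r = 0.83 and 0.70 on log2 scales), also after the group means were removed (0.78 and 0.92). *Txnrd1*, *Srxn1* and *Gclc* ran opposite to these markers (-0.70, -0.76 and -0.74, and -0.37, -0.60 and -0.42 without group means) and along with the astrocyte markers (0.79, 0.76 and 0.70, and 0.23, 0 and 0.15 without group means). *G6pdx* had r = -0.42 with the microglia markers and 0.66 with the astrocyte markers, and 0.38 and -0.04 without group means. *Gclm*, *Slc7a11* and *Nqo1* also ran along with the astrocyte markers (0.66, 0.63 and 0.56, and 0.48, 0.45 and 0.20 without group means). With the microglia markers these genes had negative values too (-0.63, -0.35 and -0.52, and -0.29, -0.11 and -0.16 without group means). *Hmox1* had r = 0.14 with the microglia markers and -0.15 with the astrocyte markers, and 0.30 and -0.56 without group means. With the oligodendrocyte lineage markers r ran from -0.62 (*Hmox1*) to 0.27 (*Gclm*). Without group means it ran from -0.48 (*Hmox1*) to 0.59 (*Gclc*), with 0.50 for *Slc7a11*. These correlations are descriptions over 15 libraries that share their groups, and the part of cell composition in the changes of the 10 genes was not tested.

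The protein-coding genes with the pattern most like each of the 10, by Pearson r of log2 CPM over the 15 cultures among 14182 genes, were *Milr1* (0.93) and *Ikzf1* (0.92) for *Nfe2l2*, and *Rps6ka1* (0.97) and *Rac2* (0.96) for *Pgd*. For *Txnrd1* they were *Fbxl5* and *Serpina3n* (both 0.96), for *Srxn1* *Aldh1a7* and *Rhoj* (both 0.95), and for *G6pdx* *Ogdh* and *Gcdh* (both 0.94). *Gclc* was most like *P2ry1* (0.95) and *Sox1* (0.90), *Gclm* like *Tspan12* (0.93) and *Aqp4* (0.91), and *Hmox1* like *Phb2* (0.90) and *Eif4e2* (0.88). *Nqo1* was most like *Gsta4* (0.87) and *Acadm* (0.84), and *Slc7a11* like *Bcat1* (0.86) and *Ndnf* (0.85). Among the 10 genes themselves, *Txnrd1* and *Srxn1* were the most alike (0.95), followed by *G6pdx* with *Txnrd1* (0.89) and *Srxn1* (0.87). Without the group means these 3 values were 0.10, 0.12 and 0.23, so the likeness lay mostly between the groups. *Gclc* and *Gclm*, by contrast, had r = 0.76 over all cultures and 0.69 without the group means.

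The wider pathway was read from 9 lists, also chosen with earlier results of these data known. They held 159 further genes, of which 146 were tested. At the high dose, 30 of these rose and 5 fell (24% called, against 9.77% of all genes), and their median log2 fold change was 0.08 beside -0.004 over all genes. At the low dose, 13 rose and 6 fell (13%, against 7.87%), with a median of 0.05 beside 0. For lists chosen in this way, the shares over all genes are a description, not a test. Single cultures weighed on both counts. The 35 calls at the high dose became 12 and 18 without replicates 1 and 3 at that dose, 14 and 15 without unstimulated replicates 1 and 5, and at most 52. The 19 calls at the low dose lay between 6 and 12 without unstimulated replicate 1, 3, 4 or 5 or without replicate 1, 4 or 5 at the low dose, and reached 29 without replicate 2 at the high dose.

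**Figure D5:**
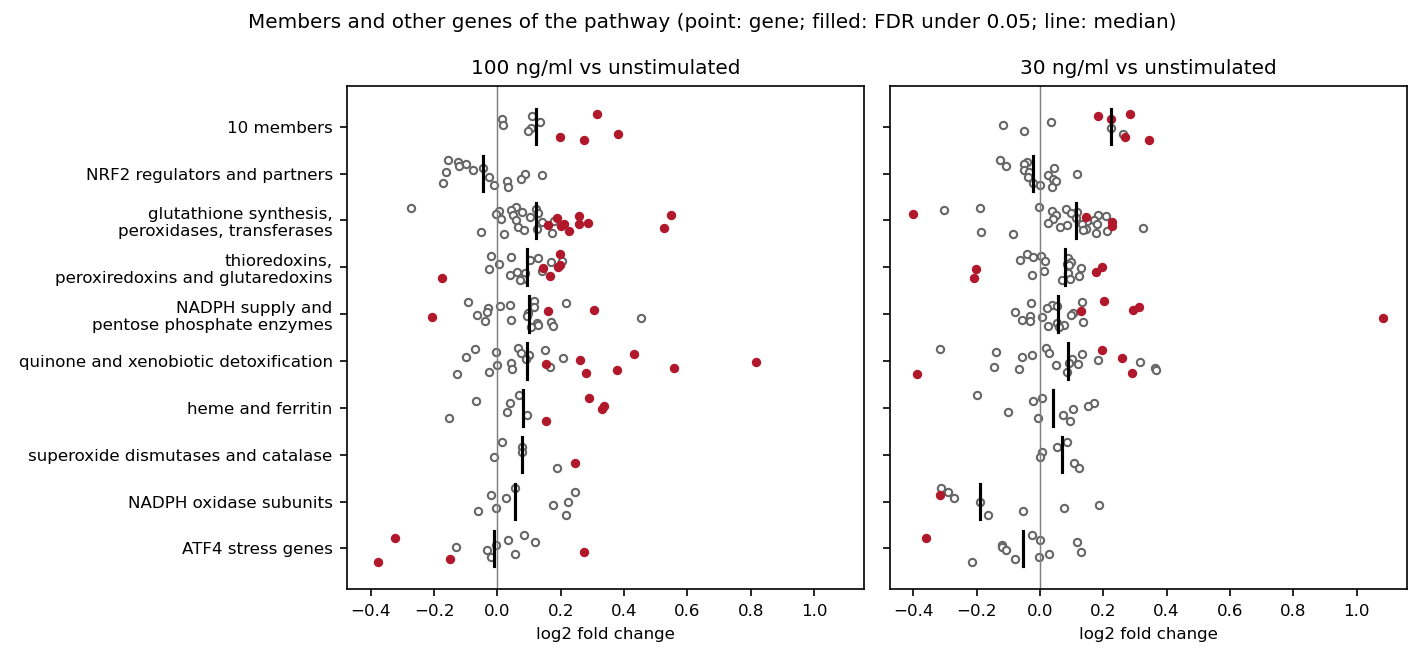
Log2 fold change (horizontal axis) of the 10 genes and of the genes of 9 pathway lists, for the high dose on the left and the low dose on the right, with each point a gene, filled at an FDR under 0.05, and a line at each list's median. Filled points to the right of 0 are most numerous for the glutathione list at the high dose (10 of 30), and the list of NRF2 regulators has none.

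None of the 15 regulators and partners of NRF2 was called at either dose by edgeR's quasi-likelihood test, DESeq2 or the likelihood-ratio test. At an unadjusted p under 0.05, 2 were lower at the high dose and 1 was higher at the low dose. The one with the highest level per length (TPM), *Sqstm1*, which encodes the autophagy receptor p62 that binds KEAP1, averaged 332.1 ± 9.69, 340.7 ± 5.91 and 339.7 ± 15.8 CPM without IL-12 and with the low and the high dose.

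Of 30 further genes of glutathione synthesis, peroxidases and transferases, 10 rose and 0 fell at the high dose (33.3% called, against 9.77% of all genes). At the low dose, 3 rose and 1 fell (13.3%, against 7.87%), and DESeq2 and the likelihood-ratio test each called 7 higher and 1 lower. *Gpx7*, a peroxidase of the endoplasmic reticulum, went from 9.26 ± 0.478 to 13.5 ± 1.57 CPM at the high dose (log2 fold change 0.55 ± 0.075, FDR = 0.000223), with 10.5 ± 0.524 CPM at the low dose. The transferases *Gstt2* (0.53 ± 0.137, FDR = 0.0226) and *Gstm2* (0.29 ± 0.079, FDR = 0.0296) also rose at the high dose. *Gpx3*, a secreted peroxidase, fell at the low dose (-0.40 ± 0.108, FDR = 0.03) from 80.5 ± 11.03 to 61.0 ± 7.43 CPM and was at 80.3 ± 11.7 CPM at the high dose.

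Thioredoxins, peroxiredoxins and glutaredoxins gave 5 higher and 1 lower of 20 at the high dose (30% called, against 9.77% of all genes). At the low dose they gave 2 higher and 2 lower (20%, against 7.87%). *Txnip*, which encodes an inhibitor of thioredoxin, fell at both doses, from 332.9 ± 6.54 to 288.2 ± 18.5 CPM at the low dose (FDR = 0.0157) and 295.2 ± 19.1 CPM at the high dose (FDR = 0.0351). The peroxiredoxin gene *Prdx1* rose at the high dose (0.20 ± 0.051, FDR = 0.021), as did the glutaredoxin gene *Glrx* (0.20 ± 0.040, FDR = 0.00508). *Prdx4*, a peroxiredoxin of the secretory pathway, fell at the low dose (-0.20 ± 0.051, FDR = 0.0211) and was at -0.03 at the high dose.

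For NADPH supply beyond *G6pdx* and *Pgd*, 2 of 22 genes rose and 1 fell at the high dose (13.6% called, near the 9.77% of all genes). At the low dose, 5 rose and 0 fell (22.7%, against 7.87%). *Me1*, the cytosolic malic enzyme, rose at the low dose from 94.4 ± 6.59 to 117.4 ± 6.71 CPM (FDR = 0.0014) and averaged 102.3 ± 3.98 CPM at the high dose (FDR = 0.164). *Me3*, a mitochondrial malic enzyme, rose by 0.30 ± 0.079 at the low dose (FDR = 0.0282) and 0.31 ± 0.079 at the high dose (FDR = 0.0212). *Nadk2*, the mitochondrial NAD kinase, fell by 0.21 at the high dose (FDR = 0.0385). The largest change of the list, 1.08 ± 0.319 for the mitochondrial transhydrogenase gene *Nnt* at the low dose (FDR = 0.0441), came with cultures that ranged from 2.61 to 12.6 CPM, against 3.02 to 4.70 CPM without IL-12.

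Quinone and xenobiotic detoxification had 7 of 22 genes higher and 0 lower at the high dose (31.8% called, against 9.77% of all genes). At the low dose 3 were higher and 1 lower (18.2%, against 7.87%), with 4 and 2 by DESeq2 and 5 and 2 by the likelihood-ratio test. *Pir*, which encodes the iron-binding nuclear protein pirin, went from 2.79 ± 0.208 to 4.12 ± 0.570 CPM at the high dose (FDR = 0.0039), with 3.61 ± 0.366 CPM at the low dose (FDR = 0.0523). *Akr1b8*, an aldo-keto reductase, rose by 0.43 ± 0.086 (FDR = 0.00449) and *Ces1g*, a carboxylesterase near the limit of the filter at 0.629 ± 0.0981 CPM without IL-12, by 0.82 ± 0.226 (FDR = 0.0299) at the high dose. The glucuronosyltransferase gene *Ugt1a7c* fell at the low dose (-0.39 ± 0.092, FDR = 0.0156).

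Of the 10 other heme and ferritin genes, 4 rose at the high dose (40% called, against 9.77% of all genes), all of them named here. The ferritin heavy chain gene *Fth1* went from 3053 ± 138.0 to 3857 ± 117.4 CPM (FDR = 0.000273) and the light chain gene *Ftl1* from 4182 ± 378.8 to 5255 ± 489.1 CPM (FDR = 0.0105). *Blvrb*, a biliverdin reductase, rose by 0.29 ± 0.072 (FDR = 0.0186) and the heme transporter gene *Slc48a1* by 0.16 ± 0.040 (FDR = 0.0219). At the low dose, edgeR's quasi-likelihood test called 0 of these 10, DESeq2 and the likelihood-ratio test called 1 higher, and 3 were higher and 1 lower at an unadjusted p under 0.05.

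Among superoxide dismutases and catalase, 1 of 6 rose at the high dose (16.7% called, against 9.77% of all genes). This was *Sod2*, the mitochondrial manganese enzyme, at 84.2 ± 3.25 CPM without IL-12 and 99.7 ± 5.71 CPM with it (FDR = 0.002). At the low dose edgeR's quasi-likelihood test, DESeq2 and the likelihood-ratio test called 0 of the 6, and 2 were higher at an unadjusted p under 0.05. Of 9 NADPH oxidase subunits, which make superoxide, 1 fell at the low dose (11.1%, near the 7.87% of all genes called). This was *Ncf1* of the phagocyte enzyme (-0.31 ± 0.085, FDR = 0.0305). Microglia markers were lower at that dose too, and a link was not tested. DESeq2 called 4 of the 9 lower there and the likelihood-ratio test 3, and 4 were lower at an unadjusted p under 0.05. None of the 9 was called at the high dose by edgeR's quasi-likelihood test, DESeq2 or the likelihood-ratio test, and 2 were higher at an unadjusted p under 0.05.

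Since *Slc7a11* is also a target of ATF4, the stress-induced activator of amino acid supply, 12 genes of that programme were read alongside. At the high dose, 1 rose and 3 fell (33.3% called, against 9.77% of all genes). *Phgdh*, the first enzyme of serine synthesis, rose by 0.28 ± 0.063 (FDR = 0.0107), while *Trib3* (-0.38 ± 0.10, FDR = 0.0253), *Atf3* (-0.32 ± 0.078, FDR = 0.0149) and *Sesn2* (-0.15 ± 0.046, FDR = 0.0473) fell. At the low dose 1 of the 12 fell, *Atf3* (-0.36 ± 0.078, FDR = 0.00929), and 0 rose (8.33%, near the 7.87% of all genes).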

How the data were processed

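Of each culture, the authors deposited per-transcript lengths, effective lengths, estimated counts and TPM for 121798 transcripts, without naming the program. The submitters' processing notes name FastQC 0.10.0, STAR 2.7.8a, featureCounts and GRCm39, but the deposited values are estimates per transcript, not whole counts per gene. Here transcripts were summed to genes by identifier with GENCODE release M39 on GRCm39 (120537 matched, 99.0%; the others, 0.677% to 0.712% of reads, were left out), and counts were rounded. Such estimates may divide reads among paralogs and overlapping genes. *G6pdx* overlaps *Ikbkg* on the other strand and *Gclm* has a pseudogene in its span, but whether reads were shared between them was not tested.

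Genes reaching 1 CPM in 2 or more cultures were fitted over all 15 libraries in edgeR 4.0.16 (R 4.3.3; TMM, 0.981 to 1.02; quasi-likelihood test, FDR under 0.05), with groups from the sample titles. DESeq2 1.42.0, other scalings and filters, a replicate term and leaving out each culture were alternatives. Using only the main transcript of each gene was added after seeing the data. Intervals of fold changes are 95%. In simulated counts for 100 ng/ml against unstimulated (15245 genes), 66, 64 and 65 genes were changed by log2 0.25, 0.5 and 1 in either direction. Of these, 28.8%, 76.6% and 100% were recovered, and 4 unchanged genes were called. Promoter sequence was read with Python 3.11.15 and pysam 0.24.0. Members and lists were chosen with earlier results of these data known. Of each pathway list, up to 4 called genes with the largest change were named, or with no call the one with the highest mean TPM. For each of the 10 genes, the 2 most alike by correlation were named.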

Additional observations from a re-analysis of the deposited data

Results flagged for a closer look

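In 111 sets of 5 cultures (the 10 genes and 27 named pathway genes, by group), 5 had a highest or lowest culture whose gap to the nearest other exceeded 0.71 of the range (Dixon's test), and chance flags about 1 in 20. *Slc7a11* stood apart in unstimulated replicate 1, at 4.024 CPM against 2.904 to 3.178 in the other 4, and in replicate 2 at the high dose, at 4.89 CPM against 3.993 to 4.171. *Gclc* was low in replicate 1 at the high dose, at 103.3 CPM against 114.2 to 117.6. *Hmox1* was low in unstimulated replicate 1, at 334.8 CPM against 378.9 to 393.9. *Txnip* was high in replicate 5 at the high dose, at 328.0 CPM against 279.0 to 293.0.

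For 3 pathway genes the changes at the 2 doses differed by edgeR's quasi-likelihood test of 100 against 30 ng/ml, at log2 differences of 0.36 for *Gpx7* (FDR = 0.0283), 0.24 for *Glrx* (FDR = 0.00762) and 0.53 for *Cybb* (FDR = 0.0179), the phagocyte oxidase subunit, named here after its values were seen. *Cybb* averaged 109.2 ± 12.8, 89.4 ± 9.61 and 129.4 ± 19.7 CPM without IL-12 and with the low and the high dose. In the same order, the summed microglia markers had medians of 12280, 9835 and 11160 TPM. The part of cell composition in this difference was not tested.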

How the results depend on the processing

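Of 26 alternatives, 25 gave fold changes for single genes. *G6pdx* and *Txnrd1* were called in all 25 at both doses, *Srxn1* in 25 at the low dose and 24 at the high dose, and *Gclc* in 24 at the low dose. Over the 10 genes and 3 comparisons, 706 values kept direction and side of the threshold, 34 lost a call, 3 gained one and 7 changed sign. The sign changes concerned values near 0. *Nfe2l2* at the high dose was at -0.002 with the length offset and at -0.003 to 0.041 with 1 culture left out. *G6pdx* between the doses was at -0.010 with the length offset. *Hmox1* at the low dose was at -0.003 without unstimulated replicate 1, and over all cultures left out at -0.012 (replicate 4 at the low dose) to 0.077. *Gclm* at the high dose was at -0.036 from the main transcript alone and at -0.017 (without replicate 2 at that dose) to 0.048 with 1 culture left out. The cause was not tested.

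Of all genes, 1500 were called at the high dose, 1209 at the low dose and 89 between the doses. Of the pathway lists 35, 19 and 3 were called. DESeq2 and the likelihood-ratio test each called 30 list genes at the low dose and 13 between the doses, and 241 and 253 of all genes between the doses. The length offset gave 906 genes, 2 of the 10 and 23 list genes at the high dose, 776 genes and 11 list genes at the low dose, and 1 list gene between the doses. No filter left 23 list genes at the high dose, and fitting only the groups compared left 946 genes and 16 list genes there. At p of at most 0.01 with a log2 change of at least 0.5, 308 genes, 0 of the 10 and 4 list genes were left at the high dose, 243, 0 and 1 at the low dose, and 1 list gene between the doses. Ordering levels by CPM in place of TPM kept 3 of the 10 genes in place.

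Leaving out each culture in turn gave 940 to 2932 genes (lowest without unstimulated replicate 5, highest without replicate 2 at the high dose), 3 to 4 of the 10 and 12 to 52 list genes at the high dose. It gave 673 to 1668 genes, 4 to 5 of the 10 and 6 to 29 list genes at the low dose, and 38 to 147 genes, 0 to 1 of the 10 and 1 to 4 list genes between the doses. Pairing by replicate number was not apparent. Over 15 same-numbered pairs r of the deviations from group means was -0.183 to 0.264. The median was -0.019, beside 0.002 for pairs with other numbers, and 5 of 15 cultures correlated best with their own number. Such values cannot exclude a preparation shared by number, which the labels do not give. With the replicate block 1169, 1081 and 69 genes were called in the 3 comparisons, *Gclm* at the low dose was at 0.22 (FDR = 0.0613), which left 4 of the 10 genes called there, and no other call among the 10 changed. In the simulated counts, where far fewer genes were changed than the 1500 called here, log2 changes near 0.25 were mostly missed. With Benjamini-Hochberg adjustment, recovery depends on how many genes change. That share therefore does not measure what was missed in these data.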
